A study of Homo sapiens with 3 samples.

Results

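The genes described here are those for the proteins of the mitochondrial ribosome, taken as every gene whose symbol is MRPL or MRPS followed by a number and at most 1 letter. The rule found 77 of the 26334 genes in the tables, 48 named MRPL and 29 named MRPS. The cells were K562, a long-established leukaemia line with erythroid features that derives from chronic myelogenous leukaemia, and RNA-seq was made from 3 libraries. All cells had been infected with a retrovirus made in packaging cells of HEK293 origin. The vectors were pMYs-IG without an insert (empty vector), pMYs-IG with 3xHA-tagged EVI1-WT, and pMYs-IG with 3xHA-tagged EVI1+18, the form that the series' title ties to aberrant splicing. EVI1 is a zinc finger transcription factor; what is counted by the number in EVI1+18 is not stated. Cells positive for the vector's GFP were sorted after infection and cultured, so each library is a pool of infected cells of 1 line, with overexpression from a virus. Each construct has 1 library, so no difference has a replicate check, no p-value is given, and every ratio compares libraries rather than constructs.

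Mitochondria keep a small genome and translate its messages on ribosomes of their own, which make core subunits of the respiratory chain. The ribosomal RNA comes from the mitochondrial genome, while all the proteins are coded in the nucleus, made in the cytosol and imported. Some of these proteins descend from bacterial ribosomal proteins and others are found only in mitochondria. The large subunit joins amino acids and holds the exit tunnel, and the small subunit reads the message.

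The libraries held 17794423 (empty vector), 18439311 (EVI1-WT) and 20772348 (EVI1+18) counts. MECOM, the gene of EVI1, had 793, 1039 and 2012 counts, ratios to empty vector of 1.30 (95% interval 1.18 to 1.42) and 2.21 (2.04 to 2.41). MECOM reads of the cell and of the vector are counted together. Among K562 markers, the erythroid factor GATA1 had 3793, 3452 and 4218 counts, its partner TAL1 2768, 3700 and 3757, and the transferrin receptor gene TFRC 22590, 31045 and 35899. Lymphocyte markers were at a summed TPM of 38.8, 12.5 and 13.2, nearly all of it CD3D with 179, 59 and 73 counts, and MS4A1 was at 0. The 5 markers of packaging cells summed to 1.03, 0.58 and 0.62 TPM, with PAX2 and NEFM at 0. The part of these differences in the results below was not tested.

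The start regions of the genes are shown first because 1 short word, of those searched, stood out most against genes at large and against described genes. RefSeq promoter windows (GRCh38.p14, 250 bases before to 50 after the start) were found for 69 of the 77 genes, some with several. The word AAGATGGCG, a core of the site of the factor YY1, lay in a window of 13 of these 69 genes (18.8%) on either strand, against 2.14% of all 27305 genes in the table and 5.48% of the 8520 described genes with a window. It occurred 14 times in the 13 genes, 12 times in the gene's own direction and 11 times within 50 bases of the start, and 10 of the 14 lay after the start. The word contains ATG, so it can also hold a start codon. MRPL46, MRPS18A and MRPS30 carry it just after the start, and MRPL20 and MRPL53 carry CCGGAAGT, a core of ETS family sites, before it. The stretches below run from 100 bases before to 30 after the start, 5′ to 3′ on the gene's strand, with the word in capitals. They lie at chr15:88467359-88467488 (minus strand), chr6:43687762-43687891 (minus), chr5:44808847-44808976 (plus), chr1:1407264-1407393 (minus) and chr2:74472651-74472780 (minus).
MRPL46: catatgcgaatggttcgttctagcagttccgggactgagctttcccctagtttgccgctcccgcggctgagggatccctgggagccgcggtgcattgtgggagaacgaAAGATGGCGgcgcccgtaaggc
MRPS18A: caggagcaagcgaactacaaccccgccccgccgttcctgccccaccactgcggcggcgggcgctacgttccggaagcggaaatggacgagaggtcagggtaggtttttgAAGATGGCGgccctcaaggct
MRPS30: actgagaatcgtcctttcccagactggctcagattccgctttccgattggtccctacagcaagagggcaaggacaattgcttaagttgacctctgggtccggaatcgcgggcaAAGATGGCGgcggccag
MRPL20: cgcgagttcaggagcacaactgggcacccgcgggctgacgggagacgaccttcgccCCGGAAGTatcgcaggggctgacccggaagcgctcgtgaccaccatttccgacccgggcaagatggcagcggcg
MRPL53: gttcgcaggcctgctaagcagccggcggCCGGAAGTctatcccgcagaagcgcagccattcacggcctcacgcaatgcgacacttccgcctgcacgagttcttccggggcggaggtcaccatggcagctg

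Other words were closer to their background. CCGGAAGT was found in 12 genes (17.4%), against 4.95% of all genes with a window and 11.7% of described genes. The core of the site of NRF1, a regulator of nuclear genes for mitochondrial proteins, spelled as GCGCA and GCGC with any 1 base between them, was in 9 (13.0%, against 6.98% and 14.9%). The E box CACGTG was in 10 (14.5%, against 8.78% and 13.2%), and CCAAT in 23 (33.3%, against 39.7% and 44.0%). TATAAA was in 4 (5.80%, against 14% and 7.50%) and the GATA word GATAAG in 2 (2.90%, against 7.71% and 5.33%). The word GACAAGATA, from the site of the first zinc finger domain of EVI1, was found in 0 of 69 genes, 0.125% of all genes and 0.0235% of described genes. These matches describe letters in the windows, words can overlap, and none is a measured binding site.

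All 77 genes were expressed in all 3 libraries, at mean counts from 351 to 4617, so all were among the 10406 genes described here, those averaging 50 counts or more. Their summed counts were 105822, 108396 and 122146 in the empty vector, EVI1-WT and EVI1+18 libraries, in which order 3 values in a row are given throughout. That was 0.595%, 0.588% and 0.588% of each library. The genes of cytosolic ribosomal proteins, 68 of them, took 6.20%, 6.40% and 6.75%. On the TPM scale, which is per length and has the same total in each library, the median gene was at 119, 101 and 98.8 TPM, and the median of all described genes was at 23.9, 22.6 and 22.1 TPM.

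Levels differed far more between genes than between libraries. The highest mean level was that of MRPL20, a bacterial-type protein of the large subunit, at 391, 427 and 411 TPM. MRPL51, found only in mitochondria, followed at 334, 347 and 338 TPM, and MRPL37, also mitochondria-specific, at 305, 313 and 330 TPM. MRPL12, the stalk protein that recruits translation factors, was at 295, 261 and 275 TPM. MRPL28 was at 284, 263 and 283 TPM, and MRPS34, of the small subunit, at 266, 265 and 254 TPM. The first 3 stood in this order in each library, and the last 3 changed places.

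At the other end MRPL57 was at 15.5, 14 and 12.7 TPM, so that the span from lowest to highest gene was 25.2-, 30.4- and 32.4-fold. MRPL19 was at 20.8, 21.7 and 17.8 TPM and MRPL17, a protein of the tunnel region, at 22.6, 23.4 and 22.7 TPM. MRPL44, which has an RNase III fold, was at 32.3, 29.1 and 24.4 TPM. MRPS14 was at 35.3, 33.3 and 32.4 TPM and MRPL22, a tunnel protein, at 36.3, 38.2 and 34.5 TPM. Across the 3 libraries a gene's highest TPM exceeded its lowest by a median of 1.11-fold, from 1.01-fold for MRPL1 to 1.36-fold for MRPS28. These 6, lowest by mean TPM, stood in the same order in each library, though in the EVI1-WT library MRPS11 (36.4 TPM) and MRPS31 (36.9 TPM) were also below MRPL22.

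EVI1-WT was set against empty vector first, which asks whether these transcripts differ where the vector carries the unaltered form. Ratios are of rounded expected counts scaled with TMM factors, with exact 95% intervals for counting error only. As a group the genes were nearly level: the median log2 ratio was 0.01, as over all described genes (0.01). The summed counts stood at a ratio of 1.01 (1.004 to 1.021), an interval just above 1. Of the 77, 40 were above a ratio of 1 (background 52.6%), or 25 on the TPM scale, where the median of all described genes was at -0.07 on the log2 scale. At least 25% higher or 20% lower, the same fold in either direction, were 0 of 77, against 17.6% of all described genes and 9.63% of the 6655 genes in the same range of mean counts. At least 2-fold apart were 0 of 77, against 2.4% of described genes. Within 10% of equal were 67.5% of the genes, against 51.3% of all described and 58.3% of genes in the same count range.

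The lowest ratio was that of MRPS28, a small subunit protein of bacterial type, with 424, 347 and 382 counts, at 0.809 (0.70 to 0.935). MRPL46, of the central protuberance, had 649, 549 and 665 counts, a ratio of 0.836 (0.745 to 0.938). MRPL49 had 2546, 2166 and 2613 counts, a ratio of 0.841 (0.794 to 0.891). For both, the EVI1-WT library was the lowest of the 3. MRPL53, beside the stalk, was at 0.857 (0.732 to 1.001) and MRPS2 at 0.858 (0.806 to 0.914). The highest was MRPL23, a protein at the tunnel exit, with 706, 866 and 963 counts, at 1.21 (1.1 to 1.34). MRPL43 followed at 1.18 (1.01 to 1.38), MRPS10 at 1.18 (1.1 to 1.26), MRPL55 at 1.16 (0.999 to 1.35) and MRPL20 at 1.15 (1.08 to 1.22). The intervals of MRPL53 and MRPL55 reached 1, and those of the other 8 did not.

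The empty vector library also served as the base for EVI1+18. The median log2 ratio was again 0.01 (0.00 over all described genes) and the summed counts were at 1.01 (0.999 to 1.02). Above a ratio of 1 were 44 of 77 (background 49.9%), or 31 with library totals and 17 on the TPM scale, where the medians of all described genes were at -0.03 and -0.10 on the log2 scale. Past that fold were 2 of 77, 1 higher and 1 lower, against 17.9% of described genes and 10.9% of those in the same count range. At least 2-fold apart were 0, against 1.85%. Within 10% of equal were 74.0%, against 48.8% of described genes and 54.6% of the count range.

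MRPL55, a bacterial-type protein of the large subunit, was the higher one, with 326, 383 and 497 counts and a ratio of 1.33 (1.15 to 1.53). MRPS28 was the lower one at 0.786 (0.683 to 0.905). Centred on genes of like GC content, their log2 ratios went from 0.41 to 0.30 and from -0.35 to -0.28, and neither was then past the fold. Next highest were MRPL24, at the tunnel, with 1003, 1122 and 1388 counts, at 1.21 (1.11 to 1.31), MRPL23 at 1.19 (1.08 to 1.31), MRPS15 at 1.18 (1.11 to 1.251) and MRPL37 at 1.16 (1.12 to 1.21). On the low side MRPL44 had 522, 502 and 485 counts, at 0.811 (0.715 to 0.919). MRPS18C was at 0.841 (0.768 to 0.920), MRPL57 at 0.877 (0.762 to 1.01), and MRPS22, of the small subunit, with 2340, 2276 and 2262 counts, at 0.843 (0.796 to 0.894). Since the empty vector library is shared, MRPS28 and MRPL23 standing at the ends of both comparisons is not independent: their empty vector counts enter both ratios.

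Between the EVI1 libraries, EVI1+18 against EVI1-WT, the form and the amount of MECOM transcript both differ and cannot be told apart. The median log2 ratio was -0.02 (-0.01 over all described genes) and the summed counts were at 0.995 (0.986 to 1.003). Above a ratio of 1 were 35 of 77 (background 48.9%). Past 25% higher or 20% lower was 1 of 77, against 15.3% of described genes and 8.14% of the count range, and 0 were 2-fold apart, against 1.16%. The 1 gene was MRPL53, with 352, 305 and 457 counts, at 1.32 (1.14 to 1.53), and its exons overlap those of CCDC142 on the same strand. MRPL2, close to the site of peptide bond formation, had 1379, 1213 and 1715 counts and a ratio of 1.248 (1.16 to 1.34), just short of 25% higher.

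MRPS26 was at 1.23 (1.09 to 1.38), MRPL4, which lines the tunnel, at 1.16 (1.1 to 1.23) and MRPS2 at 1.15 (1.08 to 1.22). These 5 highest genes all had their lowest scaled level in the EVI1-WT library. Lowest were MRPL39, with 1058, 1181 and 1081 counts, at 0.808 (0.743 to 0.878), and MRPL19 at 0.835 (0.783 to 0.891). MRPL33 was at 0.838 (0.753 to 0.934), MRPL44 at 0.853 (0.751 to 0.968) and MRPS10 at 0.861 (0.803 to 0.922). Of these 5, 4 had their highest scaled level with EVI1-WT, and MRPL44 was highest with empty vector. Since the comparison uses the EVI1-WT library of the first, a deviation of that library enters both.

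**Figure D1:**
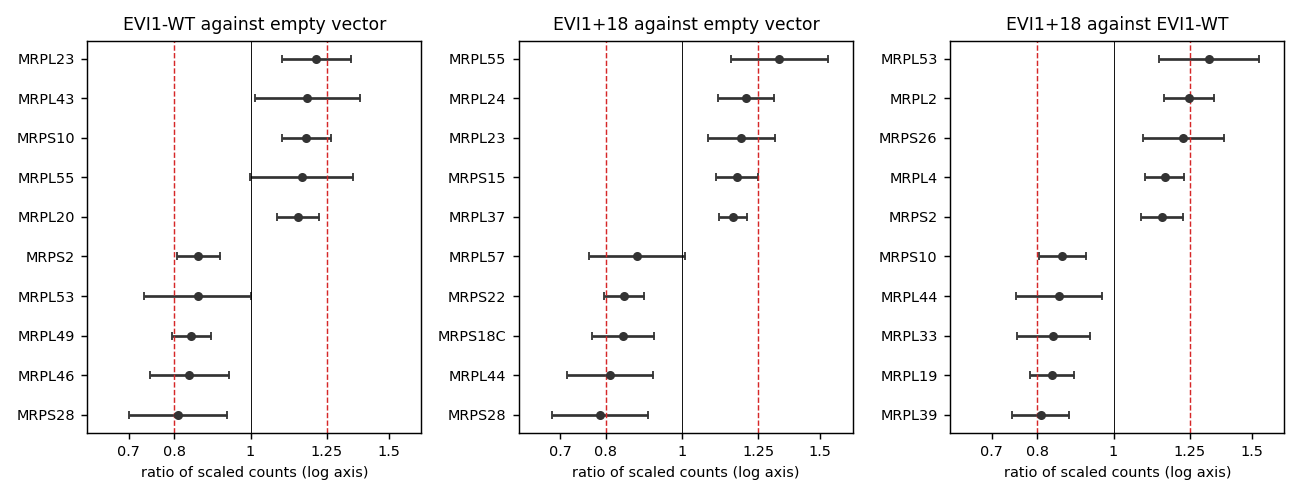
Ratio of scaled counts (log axis) of the 5 highest and 5 lowest genes in each comparison, with points for the ratio, bars for the exact 95% counting interval and dashed lines at 25% higher and 20% lower. Only MRPL55, MRPS28 (both with EVI1+18 against empty vector) and MRPL53 (EVI1+18 against EVI1-WT) lie beyond a dashed line, and their intervals cross it.

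**Figure D2:**
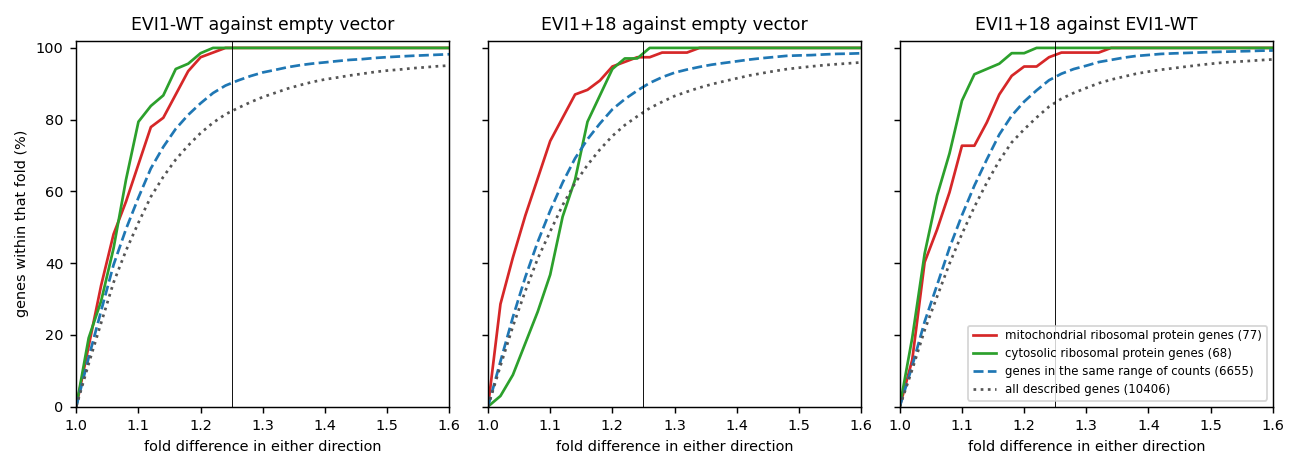
Share of genes (%) whose ratio lies within a given fold in either direction, for the 77 genes, the 68 cytosolic ribosomal protein genes, the 6655 genes in the same range of counts and all described genes. Beyond the vertical line, 25% higher or 20% lower, lie 0, 2 and 1 of the 77 genes and 17.6%, 17.9% and 15.3% of all described genes.

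The members lay closer to a ratio of 1 than described genes at large, with a median absolute log2 ratio of 0.09, 0.08 and 0.09 in the 3 comparisons, against 0.13, 0.14 and 0.14. Genes of the same count range lay between, at 0.11, 0.12 and 0.13. The median half-width of a gene's counting interval was 0.11 on the log2 scale in each comparison. Counting intervals excluded a ratio of 1 for 32, 24 and 35 of the 77 genes, which covers counting error only and not differences between cultures. The same count was not made over all described genes, so it cannot be said whether these shares are high or low. Cytosolic ribosomal protein genes stood mostly above a ratio of 1: 61 of 68 with EVI1-WT (median log2 ratio 0.09) and 67 of 68 with EVI1+18 (0.15), against empty vector. Of all described genes, 52.6% and 49.9% were above 1. The log2 ratios of the cytosolic genes spread less than those of the members. Their span from lower to upper quartile was 0.11, 0.10 and 0.10 in the 3 comparisons, against 0.18, 0.14 and 0.18 for the members. The cytosolic genes also had far more counts, 1103545 in the empty vector library for 68 genes, against 105822 for the 77 members. Counting error therefore widens the members' span more, and its part in the difference was not tested. The difference between the mitochondrial and the cytosolic set was not tested.

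By position in the ribosome no class moved far. The 30 bacterial-type proteins of the large subunit had median log2 ratios to empty vector of 0.02 with EVI1-WT and 0.04 with EVI1+18, and the 20 mitochondria-specific ones -0.04 and -0.07. The 16 bacterial-type proteins of the small subunit stood at -0.02 and 0.01 and the 10 mitochondria-specific ones at 0.02 and 0.02. The large subunit as a whole (50 genes) and the small subunit (26) were both at 0.01 with EVI1+18 and at 0.01 and 0.00 with EVI1-WT. On the level scale the median of the large subunit was 120, 101 and 103 TPM and that of the small subunit 124, 120 and 112 TPM.

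Among smaller groups, the 5 genes of the stalk and its base, where translation factors dock, were all below a ratio of 1 with EVI1-WT (median log2 ratio -0.10). MRPL10 was at 0.875 (0.804 to 0.953), MRPL12 at 0.935 (0.882 to 0.990), MRPL11 at 0.968 (0.897 to 1.04) and MRPL54 at 0.931 (0.803 to 1.08). With EVI1+18 4 of 5 were above 1 (median 0.01), and between the EVI1 libraries 5 of 5 (0.13). Centred on genes of like GC content, 0 of 5 were above 1 with EVI1-WT, and the other counts were 2 of 5 with EVI1+18 (median -0.04) and 3 of 5 between the EVI1 libraries (0.12). With 5 genes and 1 library each, this is a description only. Before centring, 52.6%, 49.9% and 48.9% of all described genes were above 1 in the 3 comparisons. The 8 genes around the exit tunnel, through which the new chain leaves, had 6 of 8 above 1 with EVI1-WT (median 0.14), 5 of 8 with EVI1+18 (0.02) and 2 of 8 between the EVI1 libraries (-0.06). With MRPL4, which also lines the tunnel, added to them the last count was 3 of 9. Centred on genes of like GC content, 5 of 8 were above 1 between the EVI1 libraries (median 0.03). That direction thus depended on the centring, which itself turned the relation to GC content among the members, as given below. With EVI1-WT, MRPL22 was at 1.11 (1.03 to 1.20), MRPL17 at 1.09 (0.969 to 1.23), MRPL47 at 1.02 (0.958 to 1.09) and MRPL45, which holds the ribosome to the inner membrane, at 0.987 (0.921 to 1.06). The 6 genes of the central protuberance had medians of -0.02, 0.01 and 0.06 in the 3 comparisons, with MRPL40 at 1.04 (0.965 to 1.11), MRPL27 at 0.990 (0.895 to 1.09), MRPL18 at 0.978 (0.916 to 1.04), MRPL48 at 1.1 (0.968 to 1.252) and MRPL38 at 0.878 (0.805 to 0.957) with EVI1-WT. Their median with EVI1+18 turned to -0.07 when centred on GC content.

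Mammals have 3 versions of the bacterial protein S18, coded by MRPS18A, MRPS18B and MRPS18C, of which the first sits in the large subunit. MRPS18A had 1382, 1238 and 1481 counts, with ratios to empty vector of 0.886 (0.819 to 0.957) and 0.935 (0.868 to 1.01). MRPS18B had 2326, 2396 and 2877 counts, at 1.02 (0.961 to 1.08) and 1.08 (1.02 to 1.14). MRPS18C had 989, 862 and 953 counts, at 0.862 (0.785 to 0.945) and, as above, 0.841. On this scale MRPS18B was above 1 in both EVI1 libraries, and the other 2 versions were below. The intervals of MRPS18B with EVI1-WT and of MRPS18A with EVI1+18 included 1. On the TPM scale MRPS18B was below 1 with EVI1-WT (log2 ratio -0.05) and level with EVI1+18 (0.01). The empty vector library is shared by both ratios. A list of 11 genes in which variants are known to cause mitochondrial disease, not held to be complete, included MRPS28, MRPL44 and MRPS22. The 11 had medians of -0.04 and 0.00 with EVI1-WT and EVI1+18, with 4 and 6 of 11 above 1 (52.6% and 49.9% of all described genes). In the same order MRPL3 stood at 1.05 (1.003 to 1.096) and 1.02 (0.974 to 1.06), and MRPS34 at 1.05 (0.990 to 1.11) and 1.02 (0.966 to 1.09). MRPS7, with 1844, 1815 and 2127 counts, was at 0.973 (0.911 to 1.04) and 1.01 (0.945 to 1.07). MRPS14 was at 0.997 (0.898 to 1.11) and 0.987 (0.892 to 1.09), and MRPS16, with 2400, 2578 and 2833 counts, at 1.06 (1.004 to 1.12) and 1.03 (0.975 to 1.09). These 5 were within 10% of empty vector in both EVI1 libraries. MRPS36, counted by name but held to belong to the 2-oxoglutarate dehydrogenase complex, had 619, 638 and 639 counts, at 1.02 (0.911 to 1.14) and 0.901 (0.805 to 1.01).

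GC content moved with the ratios, and strongly so between the EVI1 libraries. A value was found for 76 of 77 genes (not for MRPS18B), from 35.0% to 71.9% with a median of 48.9%. Across these genes, which share the 2 libraries and are not independent replicates, Pearson's r between GC content and log2 ratio was -0.24 for EVI1-WT against empty vector, 0.37 for EVI1+18 against empty vector and 0.57 for EVI1+18 against EVI1-WT (Spearman's rho -0.29, 0.35 and 0.61). Over all described genes with a value r was -0.12, 0.27 and 0.43 (rho -0.21, 0.36 and 0.60), so the relation was not particular to these genes. Transcript length went with the ratios of EVI1+18 too. Its rho in the 3 comparisons was 0.06, -0.28 and -0.34 over the members and -0.03, -0.24 and -0.23 over all described genes. The parts of length and GC content were not tested apart. Between the EVI1 libraries 4 of the 25 genes lowest in GC content were above a ratio of 1, 11 of the 25 in the middle and 19 of the 26 highest. Against empty vector those counts were 19, 11 and 9 with EVI1-WT, and 8, 16 and 19 with EVI1+18. MRPL39, MRPL19 and MRPL33, the lowest 3 between the EVI1 libraries, have GC contents of 41.9%, 38.3% and 41.3%, and MRPS26 and MRPL4, at the high end, 63.4% and 63.5%. With each log2 ratio centred on genes of like GC content, the SD over the 76 genes went from 0.13 to 0.13, from 0.13 to 0.13 and from 0.14 to 0.12. After centring, r over these genes was 0.11, -0.18 and -0.34, against 0.01, 0.04 and 0.02 over all described genes. Among the members the relation thus changed sign in each comparison, so centred values of members are not free of GC content. Single genes between the EVI1 libraries moved more: the log2 ratio of MRPL4 went from 0.22 to 0.03, that of MRPS2 from 0.20 to 0.03 and that of MRPS26 from 0.29 to 0.11. On the low side MRPL39 went from -0.31 to -0.18, MRPL19 from -0.26 to -0.10, MRPL33 from -0.25 to -0.10 and MRPS10 from -0.22 to -0.08. Other genes went further below a ratio of 1 there: MRPS34 from -0.04 to -0.26, MRPL23 from -0.03 to -0.25, MRPS12 from -0.07 to -0.25 and MRPL43 from -0.22 to -0.35. MRPL53, from 0.40 to 0.37, changed least of the 10 genes at the ends there.

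Strand use in the counting is not given in the sources used here, so genes that overlap another gene are uncertain. In the GENCODE annotation 28 of the 77 have exons overlapping those of another gene, 6 on the same strand and 23 on the opposite one (1 on both). They include MRPL53 with CCDC142, MRPL2 with KLC4, MRPL49 with FAU and SYVN1, MRPS2 with C9orf116, MRPL43 with SEMA4G, MRPL19 with GCFC2, MRPL37 with CYB5RL and SSBP3, MRPS22 with COPB2 and MRPS18A with RSPH9. MRPL23 overlaps MRPL23-AS1, which had 0 counts in all 3 libraries. MRPL55, MRPS28, MRPL39, MRPL44 and MRPL46 overlap none. Adding the pseudogenes MRPL42P5, MRPL45P2 and MRPS31P5 to their parents left each ratio close to its own: MRPS31 with EVI1+18 went from 0.997 to 1.01, MRPL42 from 0.945 to 0.947.

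The machinery around the ribosome was described in the same way. A list of 8 symbols was made of subunits that carry other symbols and of OXA1L, which is not a subunit. Of these 7 were found, with medians of 0.04 and 0.07 in the EVI1-WT and EVI1+18 libraries against empty vector. At least 25% higher or 20% lower were 0 of 7 in each, against 17.6% and 17.9% of all described genes. With 7 genes, a count of 0 cannot be told from such a share. The symbol not found, MRP63, is an older name of MRPL57, which is among the members. OXA1L stood at 0.921 (0.868 to 0.977) and 0.931 (0.880 to 0.985). ICT1, a hydrolase built into the large subunit, was at 0.840 (0.750 to 0.939) and 0.820 (0.735 to 0.915), and AURKAIP1, of the small subunit, at 1.04 (0.975 to 1.11) and 1.13 (1.06 to 1.20). Of 27 assembly and ribosomal RNA modification genes, 3 were at least 20% lower and 0 at least 25% higher with EVI1-WT (median -0.04), against 17.6% of all described genes past that fold in either direction. The 3 were MPV17L2, at 0.752 (0.673 to 0.841), the helicase DDX28, at 0.771 (0.680 to 0.872), and ERAL1, a chaperone of the small subunit's RNA, with 2676, 2157 and 2774 counts, at 0.797 (0.753 to 0.844). With EVI1+18 the same 3 stood at 0.888, 0.847 and 0.904, while the GTPase MTG1 was at 1.31 (1.08 to 1.59) and YBEY, on 120 and 95 counts, at 0.691 (0.522 to 0.912).

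Translation factors (15 genes) had medians of -0.02 and -0.06, with 0 and 1 at least 25% higher or 20% lower, against 17.6% and 17.9% of all described genes. That 1 was MTRF1L, a release factor, with 1194, 1014 and 1045 counts, at 0.839 (0.771 to 0.914) and 0.764 (0.702 to 0.830). GFM1, an elongation factor, was at 0.898 (0.857 to 0.942) and 0.820 (0.782 to 0.859), and SLIRP, which binds mitochondrial messages, at 1.14 (1.02 to 1.26) and 1.12 (1.01 to 1.24). Genes of mitochondrial transcription and DNA upkeep (10) had medians of -0.03 and -0.10. TFB2M, the initiation factor, had 1618, 1340 and 1374 counts, at 0.819 (0.761 to 0.881) and 0.741 (0.689 to 0.797), and TFAM, which packs and transcribes mitochondrial DNA, was at 0.987 (0.946 to 1.03) and 0.843 (0.807 to 0.880). MTERF2 was at 1.13 (1.01 to 1.27) and 1.04 (0.930 to 1.16).

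Nuclear regulators of mitochondrial genes (11 of 12 described) had medians of -0.17 and -0.11, with 3 of 11 above a ratio of 1 in each, against 52.6% and 49.9% of all described genes. GABPA, GABPB1 and GABPB2, the 3 above 1 with EVI1-WT, were below it with EVI1+18, at 0.875, 0.929 and 0.962. PPARGC1B, a coactivator, had 1112, 901 and 965 counts, at 0.801 (0.733 to 0.875) and 0.757 (0.694 to 0.826), and its relative PPARGC1A had 0 counts in all 3 libraries. YY1, whose word stands in the start regions printed above, had 2002, 1799 and 1889 counts, at 0.888 (0.833 to 0.947) and 0.823 (0.773 to 0.877). Of the 13 genes that hold the word, 5 were above a ratio of 1 with EVI1-WT (median log2 ratio -0.05) and 6 with EVI1+18 (-0.02). Of all described genes, 52.6% and 49.9% were above 1, and 13 genes are too few to set these counts apart. A relation to the counts of YY1 was not tested. MRPL46, MRPS18A and MRPS30, printed with the word and chosen with values known, stood at 0.836, 0.886 and 0.945 with EVI1-WT. MRPS10, which also holds the word, stood at 1.18. The messages that these ribosomes translate, from the mitochondrial genome, had no entry under the symbols searched, so they could not be described.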

How the data were processed

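K562 RNA was sequenced with TruSeq chemistry from 3 libraries, 1 per construct, per the labels. The authors deposited a table of 26334 genes per library; per the file headers it holds expected counts, TPM values scaled by effective length to 1 total, FPKM values, which were not used, and transcript lengths. Per the submitters' processing notes, hg19 was the build and bcl2fastq the converter. Aligner, counting tool and strand use: not given in the sources used here. Expected counts were rounded and scaled with TMM factors (1.01, 0.990 and 0.996; edgeR 4.0.16, R 4.3.3). Described are the 10406 genes averaging 50 counts or more. Ratios have exact Clopper-Pearson 95% intervals conditional on the sum of the 2 counts (scipy 1.17.1, Python 3.11.15); reads are not independent molecules, so they cover counting error only. A gene is called apart when at least 25% higher or 20% lower, or at 2-fold. No test was run. The ratio code was tested on simulated data. GC content and exon overlaps came from GENCODE transcripts on GRCh38, matched by RefSeq accession or symbol, a later build than the files'. Named are, in each comparison, the 5 highest and 5 lowest members, the 6 highest and lowest by TPM, members of the role lists, and up to 2 genes at each end of other lists; others named with overlapping genes, copies, sequences or GC content were chosen after their values were seen. The members and lists were chosen with earlier results of these data known. Alternatives were DESeq2 1.42.0 size factors, library totals, TPM with a pseudocount of 0.1, and filters at 10, 500 or no counts; GC centring in 20 bins and leaving out overlapping members were added after seeing the data. Some marker genes are not reported here.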

Additional observations from a re-analysis of the deposited data

How the results depend on the processing

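No paired analysis was possible because each construct has 1 library, and for the same reason no replicate could be left out. With TPM the members' median log2 ratio was -0.07, -0.09 and -0.04 in the 3 comparisons of the report. With TPM, members above a ratio of 1 were 25 of 77 for EVI1-WT and 17 for EVI1+18 against empty vector, where the median of all described genes moved to -0.07 and -0.10; the members' median minus that of all genes was 0.00 and 0.01 under every scaling. Summed ratios with TPM were 0.961 and 0.948, and with library totals 0.989 in both. Members at least 25% higher or 20% lower (0, 2 and 1 in the order of the report) were 3, 4 and 2 with TPM. With library totals they were 1 for EVI1-WT against empty vector and 2 between the EVI1 libraries. With GC centring they were 2, 0 and 2. Among members averaging 500 counts or more they were 0 for EVI1+18 against either library, and without members overlapping another gene's exons 0 between the EVI1 libraries. The causes were not tested, save that the last 2 alternatives hold fewer genes. The share of all described genes past that fold is not given under these alternatives. It therefore cannot be said whether the members' counts under them are high or low. Of 120 alternative values for the genes at the ends, 0 changed sign, while 7 moved under GC centring and 3 with TPM. Of the 7, 6 were between the EVI1 libraries. Genes at the ends were picked as farthest from a ratio of 1, so the small shifts of other scalings could hardly turn a sign. The count of 0 is therefore no check of the results. Depth limits single genes: the median half-width of a counting interval was 0.11 on the log2 scale.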

Other observations

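MRPL23, the highest member with EVI1-WT, is a neighbour of H19, an imprinted non-coding RNA gene, with 3 genes between them in RefSeq, of which 0 code for proteins. H19 had 743, 2696 and 3527 counts in the empty vector, EVI1-WT and EVI1+18 libraries, ratios to empty vector of 3.59 (3.31 to 3.90) and 4.14 (3.83 to 4.49), while MRPL23 stood at 1.21 and 1.19. IGF2, the imprinted gene on the far side of H19, had 0 counts in all 3. The pair was chosen after its values were seen, and a relation between the 2 genes was not tested.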
